A study of Macaca mulatta with 16 samples.

Results

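Mitochondrial ribosomal proteins are the nuclear-encoded protein components of the ribosome that works inside mitochondria. They are made in the cytosol, imported, and assembled with mitochondrial ribosomal RNA into a small subunit, which reads the messenger RNA, and a large subunit, which forms peptide bonds. This ribosome translates the messenger RNAs of the mitochondrial genome, all of whose proteins belong to the respiratory chain and ATP synthase. Extraocular muscles, which move the eye, are rich in mitochondria, and their outer orbital layer is known for small fatigue-resistant fibres with a high oxidative capacity.

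The members were all probe sets on the human array types U133A and U133B whose annotated gene symbol is MRPL (named for the large subunit) or MRPS (named for the small subunit) followed by a number and at most 1 letter. This gave 77 genes, 49 MRPL and 28 MRPS, measured by 141 probe sets. U133A held 64 of these probe sets, for 51 of its 13119 annotated genes, and U133B held 77, for 45 of its 10652. Of the 77 genes, 19 were on both types, and each of the 77 symbols was found among the rhesus macaque gene names of RefSeq. On U133B, 3 member probe sets carried several symbols and are counted but not named.

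The RNA came from extraocular muscle of adult rhesus macaques (Macaca mulatta). The 4 groups were the orbital layer, the global layer (the inner layer of the muscle), the whole lateral rectus and the whole medial rectus, each with 2 arrays per array type, and so few arrays leave every estimate imprecise. Layer samples were microdissected, as the labels of some of them say, and their messenger RNA was amplified by a T7-based protocol, whereas whole muscles were labelled by the standard protocol, so that dissection, amplification and tissue cannot be told apart between layers and whole muscle. No genotype or treatment is given for any group. The labels do not tie arrays to animals or say whether the 2 array types were hybridised with the same RNA, so the p-values reflect the scatter of these arrays alone, which may be technical, and may be too small.

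Values are intensities on a linear scale. They are compared within a probe set and never between probe sets, because human probes can bind macaque transcripts unequally. A probe set was tested in a comparison when its mean log2 intensity over the arrays compared reached the median of its table. A difference passed when its adjusted p was under 0.05 in limma with Benjamini-Hochberg adjustment over all probe sets tested in that table. Of the member probe sets, 53 of 64 on U133A and 57 of 77 on U133B were tested in at least 1 comparison. MRPL54, MRPS27 and MRPS28 had no tested probe set.

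Some measures moved with the groups and others overlapped. MYH13, the myosin heavy chain specific to extraocular and laryngeal muscle, overlapped on U133A, at 77188 to 122883 in the layers and 65557 to 85317 in whole muscle. Of the 8 skeletal muscle fibre markers tested there, MYH13 among them, 3 were higher and 5 lower in the layers. Of these 8, 0 passed as higher and 2 as lower, beside 18.6% and 30.1% of all probe sets tested. For the ACTB control on U133A, the ratio of the 3' to the 5' probe set was 5.30 and 5.87 in the orbital layer, 2.84 and 2.88 in the global layer and 0.716 to 1.04 in whole muscle. On U133B the ratio was 5.29 and 4.43, 3.54 and 3.61, and 0.512 to 0.933 in the same order. The GAPDH control did not separate the layers: its ratio was 1.73 and 2.00 in the orbital against 2.92 and 1.497 in the global layer on U133A, where whole muscle overlapped at 0.947 to 1.66, and 2.49 and 3.74 against 4.33 and 2.04 on U133B, where whole muscle lay lower at 1.18 to 1.74. One orbital array of U133A has labels that conflict, since its title names the orbital layer and its source name the global layer. The title was followed, and the counts, medians and named members of the layer comparison are given without it as well. One global array of U133B has a source name that names the layers without saying which.

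In the orbital layer, most mitochondrial ribosomal protein genes had a lower signal than in the global layer, but none of the differences passed the test. Of 69 genes tested, all tested probe sets were lower in the orbital layer for 46 genes and higher for 14, and the probe sets disagreed for 9. The median log2 difference was -0.21 over 47 probe sets on U133A, beside -0.04 over all probe sets tested, and -0.12 over 51 on U133B, beside 0.03. By probe set, 38 of 47 on U133A (80.9%) and 34 of 51 on U133B (66.7%) were lower in the orbital layer, beside 54.0% and 47.0% of all probe sets tested.

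The test across all probe sets with limma called 0 of 47 member probe sets on U133A, where it called 0.409% of all, and 0 of 51 on U133B, where it called 0.021%. At an unadjusted p under 0.05 there were 4 members on U133A, where the share of all probe sets was 9.49%, and 2 on U133B, where it was 7.76%. Groups that do not overlap, with both orbital arrays below both global arrays, were found for 18 of 47 members on U133A (38.3%, beside 23.4% of all) and for 9 of 51 on U133B (17.6%, beside 17.8%). The opposite order, both orbital arrays above both global arrays, was found for 1 member on U133A (beside 18.5% of all) and for 5 on U133B (9.80%, beside 20.8%). The shares on U133B that were lower without overlap thus lay at the background, and those on U133A lay above it.

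**Figure D1:**
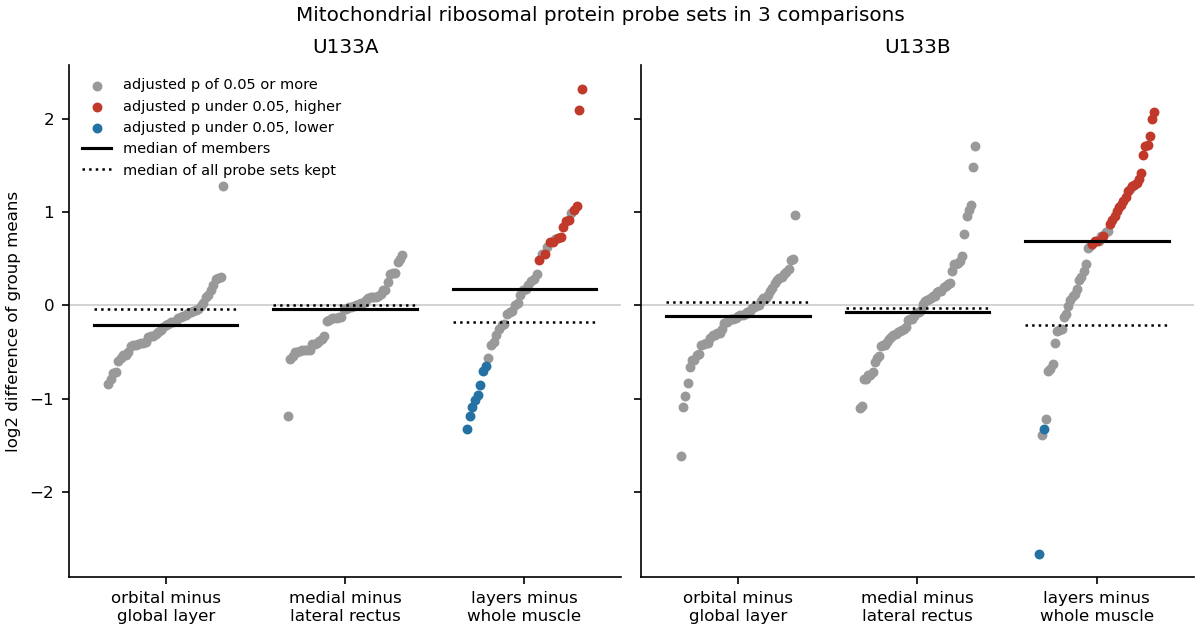
Each point is 1 member probe set in 1 comparison, and the vertical axis is its log2 difference of group means. The solid line is the median of the members and the dotted line the median of all probe sets tested; points that passed the test occur for layers against whole muscle, where the members' median was 0.17 on U133A and 0.69 on U133B.

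Within the large subunit on U133A, MRPL9, a counterpart of bacterial protein L9, read 1682 and 1792 in orbital and 3159 and 3078 in global samples. The log2 difference was -0.84 ± 0.24 (SE, n = 2 each, adjusted p = 0.333 in limma). The layers did not overlap, and both whole muscles lay near the orbital layer, at 1266 to 1730. A second probe set for MRPL9 went the other way, with 1106 and 1029 in orbital and 560 and 1505 in global samples (0.22 ± 0.46), so that its layers overlapped.

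MRPL50, a large-subunit protein with no bacterial counterpart, was lower in the orbital layer with both of its tested probe sets on U133B. One read 2354 and 2052 in orbital and 4112 and 5338 in global samples, a log2 difference of -1.09 ± 0.30 (n = 2 each, adjusted p = 0.429 in limma). The other read 1914 and 1419 against 2928 and 3574 (-0.97 ± 0.33, adjusted p = 0.53 in limma). In whole muscle the first probe set read 1481 to 2006, below both global arrays, so the global layer was the group that stood high.

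MRPL35, a counterpart of bacterial L35, read 5766 and 3906 in orbital and 7729 and 7904 in global samples of U133A (-0.72 ± 0.27, n = 2 each, adjusted p = 0.459 in limma). On U133B one probe set for MRPL35 read 258 and 1436 against 1812 and 1913 (-1.61 ± 0.76), with its first orbital array far below the second. The layers did not overlap in these 2 probe sets, but a further U133B probe set read 3199 and 7975 against 4567 and 7181 and overlapped (-0.18 ± 0.45). In whole muscle the U133B probe set without overlap ran from 547 to 3393, a wider span than between the layers.

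MRPL57, a large-subunit protein specific to mitochondria, read 1636 and 1282 in the orbital and 2625 and 2137 in the global layer (-0.71 ± 0.27, n = 2 each, adjusted p = 0.47 in limma), below whole muscle in both layers. MRPL11, whose bacterial counterpart lies where translation factors bind, read 2461 and 1922 against 3199 and 3076 (-0.53 ± 0.26). On U133B, MRPL43 was lower at 6199 and 9535 against 9938 and 13462 (-0.59 ± 0.31). The layers did not overlap in these 3 probe sets, and in that of MRPL43 the nearest orbital and global arrays lay close together. Other tested probe sets of MRPL57 (-0.43 ± 0.34 and -0.03 ± 0.35) and of MRPL43 (0.08 ± 0.31) had layers that overlapped.

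The large-subunit members MRPL1, MRPL51 and MRPL14 had both orbital arrays below both global arrays on U133B by smaller amounts. MRPL1, the counterpart of the mobile L1 stalk protein, read 8342 and 8063 against 10576 and 13180 (-0.53 ± 0.26), MRPL51 read 22268 and 21650 against 28208 and 34909 (-0.52 ± 0.25), and MRPL14, which lies between the subunits, read 56072 and 57543 against 64124 and 78373 (-0.32 ± 0.24). In each, whole muscle was lower than both layers.

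Among members named for the small subunit, MRPS22, a mitochondria-specific protein mutated in an inherited deficiency of the respiratory chain, was lower in the orbital layer with all 4 of its tested probe sets. On U133A it read 5233 and 5338 in orbital and 10863 and 5852 in global samples (-0.59 ± 0.32, n = 2 each, adjusted p = 0.602 in limma), and the first global array is far above the other 3 layer arrays. On U133B one probe set read 9013 and 14059 against 21204 and 14968 (-0.66 ± 0.32), without overlap, and the other 2 overlapped (-0.40 ± 0.34 and -0.41 ± 0.34). All 4 are of the array maker's class of probe sets that can also bind other sequences.

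MRPS10, a counterpart of bacterial S10, read 3923 and 4566 in orbital and 5990 and 6566 in global samples of U133A (-0.57 ± 0.24, n = 2 each, adjusted p = 0.519 in limma). MRPS33 read 3958 and 2667 against 5334 and 4107 (-0.53 ± 0.29). The layers did not overlap for either, but in MRPS33 the nearest orbital and global arrays differed by little.

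MRPS30, which sits in the large subunit of the mammalian mitochondrial ribosome in spite of its name, gave conflicting readings. One U133A probe set read 527 and 571 in orbital and 1120 and 801 in global samples (-0.79 ± 0.36, n = 2 each). It met the filter of 654 only through the global layer, where it averaged 960 against 549, so that its difference is a description. A second U133A probe set read 4077 and 3689 against 5438 and 4886 (-0.41 ± 0.24). The U133B probe set read 1741 and 2173 against 1536 and 1425 (0.39 ± 0.34), higher in the orbital layer without overlap. The direction of MRPS30 thus depended on the probe set.

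Few members were higher in the orbital layer without overlap. On U133A this was MRPL17 alone, which read 2826 and 3299 in orbital and 2317 and 2622 in global samples (0.31 ± 0.25, n = 2 each, adjusted p = 0.719 in limma). On U133B they were MRPL30 with 2 probe sets (0.49 ± 0.37 and 0.27 ± 0.35), MRPL2, a counterpart of a core bacterial protein of the peptidyl transferase centre (5059 and 5811 against 4248 and 3550; 0.48 ± 0.28), the MRPS30 probe set above, and MRPL44, which carries a ribonuclease-like fold (1445 and 1593 against 1234 and 1168; 0.34 ± 0.37). None of these had an unadjusted p under 0.05.

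**Figure D2:**
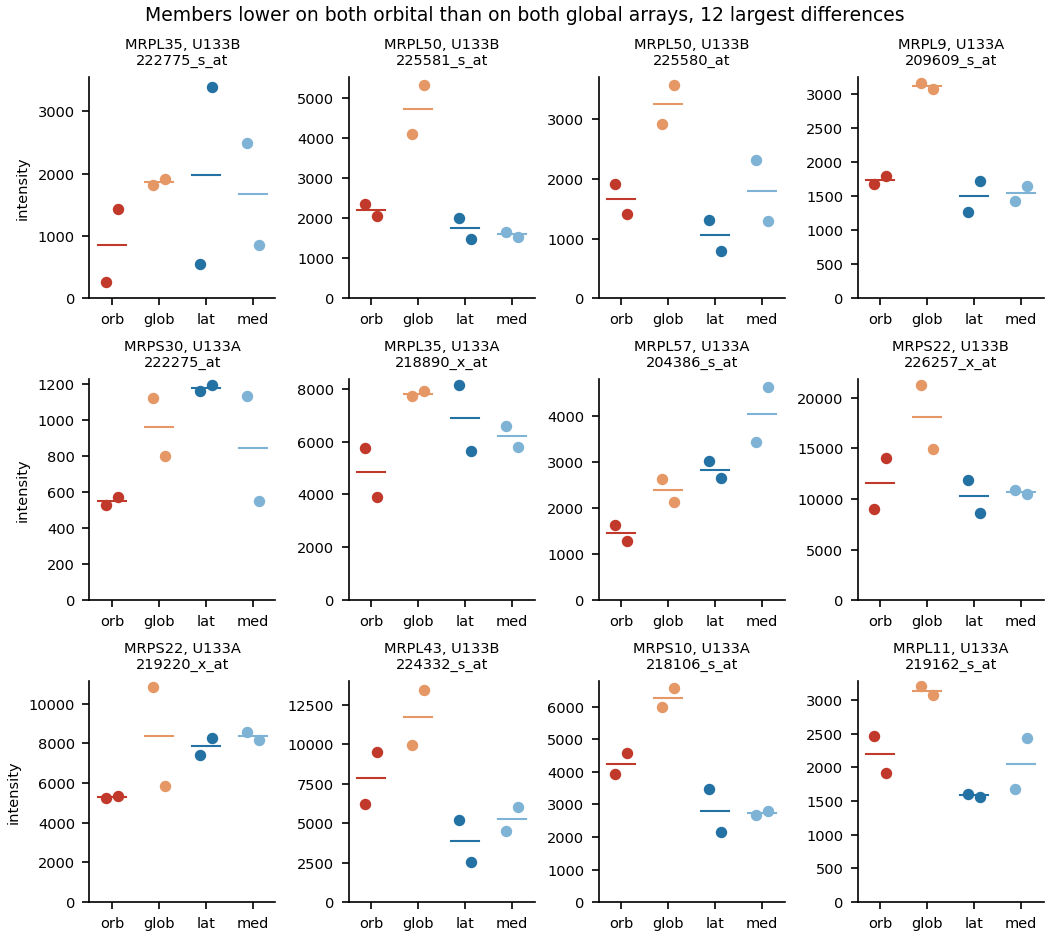
Intensity (linear axis from 0) of the 12 member probe sets with the largest differences among those whose orbital arrays both lie below their global arrays, with 1 point per array and a line at the group mean; orb, glob, lat and med are the orbital layer, global layer, lateral rectus and medial rectus. The global arrays of MRPL9 (3159 and 3078) and of MRPL50 lie above all other arrays, whereas MRPL57 is highest in the medial rectus.

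By class, the shift toward lower orbital signal was present in both subunits. Probe sets named for the small subunit had a median log2 difference of -0.33 (15 of 17 lower) and those named for the large subunit -0.19 (23 of 30 lower) on U133A. On U133B the medians were -0.14 (13 of 18 lower) and -0.10 (21 of 33 lower). Members named after a bacterial counterpart had a median of -0.17 on U133A and -0.10 on U133B, and members with higher numbers, most of which are specific to mitochondria, -0.36 and -0.19. The differences between these classes were not tested.

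MRPS22 and MRPL44, fixed members of known function, are given above, and the others tested had these differences between the layers. MRPL12, which resembles the bacterial stalk protein L7/L12 and also binds the mitochondrial RNA polymerase, read 1726 and 1065 in orbital and 1553 and 1432 in global samples (-0.14 ± 0.31). MRPL3 differed by -0.28 ± 0.40 and MRPS16 by -0.13 ± 0.28, both with layers that overlapped. The paralogs MRPS18A (-0.42 ± 0.24 and -0.21 ± 0.37 for its 2 probe sets), MRPS18B (-0.40 ± 0.32) and MRPS18C (-0.14 ± 0.28) were all lower in the orbital layer by less than would pass.

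The layers also differed in measures other than the members, whose part in the result was not tested. On U133A the summed intensity of fibroblast markers (6 of 6 genes on the array, 11 of 15 tested probe sets higher in the orbital layer) was 388371 and 341396 in orbital and 285282 and 288363 in global samples. On U133B the fibroblast sums overlapped, at 18555 and 13825 against 14220 and 17172, and 1 of 3 tested probe sets was higher. The sum for endothelium (5 of 5 genes on U133A, 5 of 6 probe sets lower) was 16372 and 14824 against 24226 and 17931, and for adipocytes (5 of 5 genes, 2 of 2 lower) 2495 and 2874 against 4622 and 7602, both on U133A. Skeletal muscle fibre markers (8 of 8 genes, 5 of 8 lower) overlapped on U133A between the layers, at 528681 and 556295 against 529726 and 598510. No marker gene of these lists was at the floor on all arrays, and fewer cells of a type and less RNA per cell cannot be told apart in these samples.

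Leaving out the orbital array with conflicting labels, 37 of 48 member probe sets on U133A were lower in the orbital layer and the median was -0.28. The named U133A members that were lower without overlap kept their direction, at -0.80 ± 0.43 for MRPL9, -1.001 ± 0.41 for MRPL35, -0.89 ± 0.43 for MRPL57, -0.71 ± 0.43 for MRPL11, -0.58 ± 0.42 for MRPS22, -0.46 ± 0.41 for MRPS10, -0.73 ± 0.53 for MRPS30 and -0.81 ± 0.42 for MRPS33, and none passed. The MRPS30 probe set is the one that met the filter only through the global layer, so that its value is a description. MRPS16 changed sign, from -0.13 to 0.07, and MRPL12 moved from -0.14 to -0.49. The median was -0.32 for members named for the small subunit (15 of 18 lower), -0.20 for the large subunit (22 of 30), -0.13 for names with a bacterial counterpart (24 of 33) and -0.43 for higher numbers (13 of 15).

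The lower orbital signal was uneven over the other layer arrays. Without the second global array, 31 of 46 members were lower on U133A, with a median of -0.17 beside -0.07 for all probe sets, and 28 of 51 on U133B, with a median of -0.08 beside 0.00. Without the second orbital array, 28 of 51 were lower on U133B (54.9%, beside 46.0% of all), with a median of -0.07 beside 0.05. Without the first global array the medians were lower than with all arrays, at -0.30 on U133A and -0.21 on U133B.

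Among counts of groups without overlap, on U133A, 25 of 47 members were lower without the orbital array whose labels conflict (53.2%, beside 37.7% of all) and 25 without the second orbital array (beside 35.5%). Higher in these settings were 2 and 4 (4.26% and 8.51%, beside 30.2% and 30.5% of all). Without the first global array they were 36 lower and 3 higher (76.6% and 6.38%, beside 38.2% and 33.7%). Without the second they were 24 lower and 13 higher (51.1% and 27.7%, beside 43.0% and 35.0%). On U133B there were 18 lower and 21 higher without the second global array (35.3% and 41.2%, beside 34.0% and 37.0%), near the shares of all probe sets. There were 13 lower and 12 higher of 51 without the second orbital array (25.5% and 23.5%, beside 32.4% and 36.1%). Without the first orbital array of U133B, 24 were lower and 9 higher (47.1% and 17.6%, beside 32.1% and 37.0%). Leaving out its first global array gave 26 lower and 7 higher (51.0% and 13.7%, beside 31.5% and 37.2%).

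The other genes of mitochondrial translation and of the ribosomes gave these counts in the same comparison. Mitochondrial translation factors had a median log2 difference of -0.17 over 7 probe sets on U133A and -0.22 over 9 on U133B, with 8 of 9 lower in the orbital layer. Cytosolic ribosomal proteins went the other way, with medians of 0.13 over 78 and 0.16 over 30 probe sets (50 and 22 higher). Subunits of the respiratory chain and ATP synthase had medians of -0.08 over 82 and -0.06 over 20. No probe set of these lists, or of the lists for assembly factors, synthetases and mitochondrial genome expression, passed the test between the layers.

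**Figure D3:**
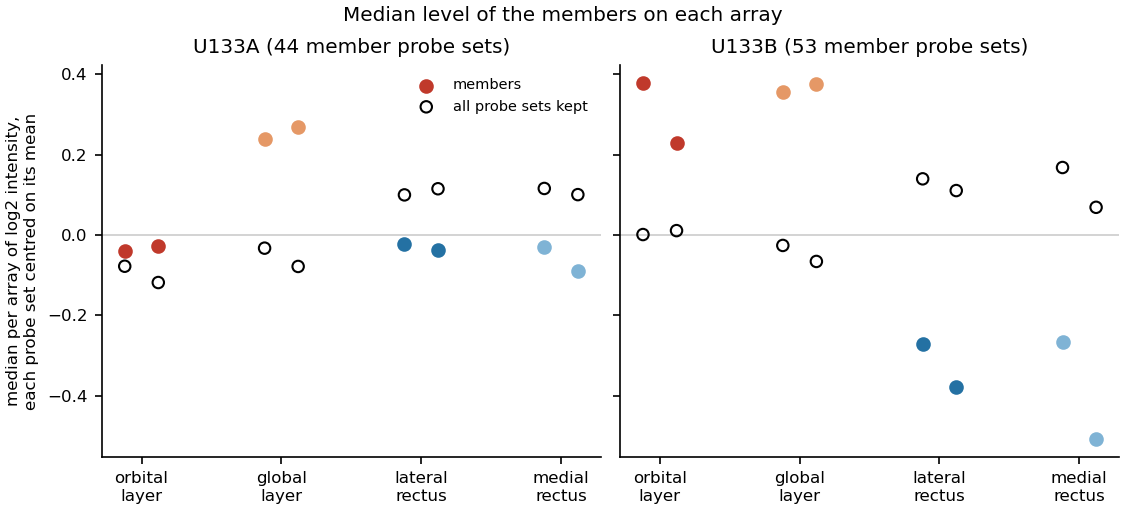
Median over the members of log2 intensity on each array, with each probe set first centred on its mean over the 8 arrays of its type (filled points), and the same for all probe sets tested in layers against whole muscle (open points). On U133A the 2 global arrays stand highest, at 0.24 and 0.27, and the orbital arrays lie at the level of whole muscle but, unlike those, above the open points; on U133B all 4 layer arrays lie above all 4 whole muscle arrays.

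Array by array, the members' median level set the global layer apart on U133A. With each of 44 probe sets centred on its mean over the 8 arrays, the median was 0.24 and 0.27 on the global arrays, -0.04 and -0.03 on the orbital arrays, and between -0.09 and -0.02 on the 4 whole muscle arrays. On U133B, over 53 probe sets, it was 0.36 and 0.38 on the global, 0.38 and 0.23 on the orbital, -0.27 and -0.38 on the lateral rectus and -0.27 and -0.51 on the medial rectus arrays. The median of all probe sets also differed between arrays. Relative to it, the members on U133A lay at 0.27 and 0.35 in the global layer, 0.04 and 0.09 in the orbital layer and -0.19 to -0.12 in whole muscle, so the orbital arrays came between the other groups. On U133B they lay at 0.38 and 0.44, 0.38 and 0.22, and -0.58 to -0.41.

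No member differed between the medial and the lateral rectus by more than the test could tell from the spread. The test with limma called 0 of 48 member probe sets on U133A and 0 of 56 on U133B, and it called 0% of all probe sets on either type. The smallest adjusted p of a member was 0.999 on U133A and 0.991 on U133B. At an unadjusted p under 0.05 there were 0 members on U133A (2.8% of all) and 2 on U133B (3.43% of all). The median log2 difference was -0.04 on U133A and -0.07 on U133B, beside 0.00 and -0.03 for all probe sets tested, and of 69 genes 21 were higher, 32 lower and 16 mixed. Red blood cell markers (2 genes on U133A, 3 of 3 tested probe sets lower, median -1.66) had sums of 30957 and 22771 for the medial against 87453 and 77334 for the lateral rectus, while on U133B the 1 tested probe set was higher (0.42). Skeletal muscle fibre markers were lower in the medial rectus for 8 of 8 probe sets on U133A (sums of 603088 and 565601 against 722873 and 623664). No probe set of these lists passed, and their part in the members' values was not tested.

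Groups that do not overlap numbered 5 higher and 8 lower in the medial rectus of 48 on U133A (10.4% and 16.7%, beside 15% and 13.6% of all), and 5 and 14 of 56 on U133B (8.93% and 25.0%, beside 15.2% and 16.8%). For the large subunit, MRPL41 on U133B read 1521 and 1797 in the medial rectus, against 808 and 317 in the lateral rectus (1.71 ± 0.80, n = 2 each), with both layers at or below 328. MRPL21 read 6228 and 5479 against 8651 and 9119 (-0.60 ± 0.27) and MRPL27 5482 and 4600 against 7732 and 6862 (-0.54 ± 0.28). The rectus muscles did not overlap in these 3 members, and the lateral arrays of MRPL41 differed widely from each other. This MRPL41 probe set met the filter of 803 only through the medial rectus. It averaged 1659 there against 562.5 in the lateral rectus, so that its difference is a description.

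Other large-subunit members with rectus muscles apart were MRPL23 (3069 and 2576 against 4348 and 3638; -0.50 ± 0.25), MRPL18 (4032 and 6132 against 7709 and 6180; -0.47 ± 0.27) and MRPL57 (3423 and 4630 against 3008 and 2642; 0.50 ± 0.27). MRPL18 is a counterpart of the bacterial protein that binds 5S ribosomal RNA. MRPL11 (0.35 ± 0.32), MRPL20 (0.33 ± 0.32), MRPL52 (0.35 ± 0.41) and MRPL36 (0.45 ± 0.50) were higher and MRPL3 (-0.41 ± 0.40), MRPL44 (-0.40 ± 0.59), MRPL35 (-0.78 ± 0.48) and MRPL43 (-0.71 ± 0.70) lower in the medial rectus, with standard errors of about the size of the difference. Several genes pointed both ways: MRPL30 had probe sets at -1.10 ± 0.84, 0.16 ± 0.41 and 0.44 ± 0.42, MRPL52 a U133B probe set at -1.08 ± 0.59, MRPL43 others at 0.53 ± 0.40 and -0.25 ± 0.33, MRPL41 others at -0.43 ± 0.58 and 0.07 ± 0.50, and MRPL44 a U133B probe set at 1.07 ± 0.92. The MRPL30 probe set at -1.10 and both of MRPL44 met the filter only through the higher group, so that their differences are descriptions.

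For the small subunit, the 2 probe sets of MRPS23 went opposite ways between the rectus muscles. One read 2464 and 2576 in the medial rectus, against 1470 and 551 in the lateral rectus (1.49 ± 0.63, n = 2 each), and the other 3863 and 1503 against 4130 and 4172 (-0.78 ± 0.47). MRPS31 read 2367 and 2807 against 1825 and 1717 (0.54 ± 0.28) and MRPS18B 1925 and 1902 against 2368 and 2980 (-0.47 ± 0.28). MRPS9 (-0.75 ± 0.59), MRPS30 (-0.57 ± 0.50), MRPS2 (-0.54 ± 0.58), MRPS15 (-0.47 ± 0.48) and MRPS26 (-0.43 ± 0.34) were lower as well. MRPS12, the counterpart of the bacterial protein at which streptomycin resistance arises, was tested only here and differed by -0.04 ± 0.59 and -0.50 ± 0.61 in its 2 probe sets. MRPS2 and the MRPS12 probe set at -0.50 met the filter only through the lateral rectus, so that their differences are descriptions.

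Between the layers and whole rectus muscle, many members differed, and in both directions. On U133A, 13 of 44 member probe sets rose in the layers (29.5%, beside 18.6% of all probe sets tested) and 8 fell (18.2%, beside 30.1%). On U133B, 24 of 53 rose (45.3%, beside 20.5%) and 2 fell (3.77%, beside 22.3%). In either direction, 21 of 44 passed on U133A, beside 48.7% of all, and 26 of 53 on U133B, beside 42.8%, so what set the members apart from all probe sets was the direction. By gene, 32 of 68 had a probe set that rose, 9 had one that fell, and 2 had both. The median log2 difference of the members was 0.17 on U133A and 0.69 on U133B, beside -0.18 and -0.21 for all probe sets tested. One U133B probe set that rose carries several symbols and is not named. MRPL58 and MRPL52 met the filter only through the group in which they were high; without them 12 rose and 7 fell on U133A.

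At an unadjusted p under 0.05 there were 24 of 44 members on U133A (beside 55.3% of all) and 31 of 53 on U133B (beside 52.1%). All 4 layer arrays lay above all 4 whole muscle arrays for 12 members on U133A (27.3%, beside 16.6% of all) and for 23 on U133B (43.4%, beside 19.1%). They lay below them for 6 on U133A (13.6%, beside 27.3% of all) and for 3 on U133B (5.66%, beside 21.6%).

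The size of this shift depended on the scaling and on the filter. Quantile normalization moved the median of all probe sets to 0.00 on U133A and -0.04 on U133B, and that of the members to 0.10 and 0.46. Relative to all probe sets, the members thus lay 0.35 higher on U133A and 0.90 higher on U133B in the authors' scaling, and after quantile normalization the calls were 12 higher and 5 lower on U133A and 15 higher and 4 lower on U133B. The shares of all probe sets were then 19.7% higher and 19.4% lower on U133A and 17.5% and 13.9% on U133B. With a filter at the 75th percentile the members' medians were 0.22 and 0.89, beside 0.15 and 0.26 for all probe sets, so the excess on U133A was small among brightly measured probe sets. The ACTB ratio given above moves with this comparison on every array, and its part in the result was not tested.

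Markers of other cell types moved in this comparison too, in which 18.6% of all probe sets tested rose and 30.1% fell on U133A. The summed intensity for pericytes and smooth muscle (5 of 5 genes on U133A, 5 of 7 tested probe sets rose) was 45709 to 54205 in the layers and 25255 to 34150 in whole muscle on U133A. On U133B, with 4 of 5 genes, it went the other way, at 5367 to 6799 against 7594 to 11329. Fibroblast markers overlapped on U133A, where 3 of 14 probe sets rose and 4 fell, and were higher in the layers on U133B (13825 to 18555 against 7811 to 8518). Skeletal muscle fibre markers overlapped on U133A, at 528681 to 598510 in the layers and 565601 to 722873 in whole muscle. On U133B, with 1 gene, they were higher in the layers, at 20483 to 28348 against 11792 to 15350. Endothelium markers overlapped on U133A, where 2 of 5 tested probe sets fell and 0 rose. With 1 gene on U133B they were lower in the layers, at 198 to 286 against 500.5 to 756.5. No marker gene was at the floor on all arrays, and the part of these cells in the members' result was not tested.

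In the large subunit on U133A, MRPL20, a counterpart of a bacterial protein that binds the ribosomal RNA early in assembly, read 5796 and 6717 in the orbital layer, 7809 and 6607 in the global layer, 1588 and 1228 in the lateral rectus and 1730 and 1792 in the medial rectus. Every layer array lay above every whole muscle array, a 4.27-fold rise (log2 difference 2.09 ± 0.18, n = 4 each, adjusted p = 1.91e-05 in limma). The call held under all 15 alternatives, with log2 differences from 1.98 to 2.16. Other probe sets of MRPL20 were too dim to be tested here and read lower in the layers. On U133B one read 119 to 279 in the layers against 267 to 1647 in whole muscle. On U133A another read 22 to 37 against 55 to 227, at or under the floor on 7 arrays.

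MRPL58, a peptidyl-tRNA hydrolase that rescues stalled mitochondrial ribosomes, read 1689 and 1027 in the orbital layer, 1460 and 1875 in the global layer, 211 and 111 in the lateral rectus and 682 and 360 in the medial rectus. The probe set met the filter of 654 only through the layers, where it averaged 1513, against 341 in whole muscle, so that its difference of 2.32 ± 0.46 (log2, n = 4 each) is a description. One lateral rectus array was below the floor of 146 and was raised to it. The probe set met the filter in 8 of the 15 alternatives, with differences from 1.62 to 2.73.

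MRPL15, a counterpart of bacterial L15, read 9291 to 14747 in the layers and 4941 to 6354 in whole muscle (1.06 ± 0.18, adjusted p = 0.000698 in limma, n = 4 each). MRPL18 read 11438 to 12218 against 4032 to 7709 (1.02 ± 0.19, adjusted p = 0.00129 in limma). Both were apart on all arrays and passed under every alternative.

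MRPL40 rose less, from 2421 to 2726 in whole muscle to 3532 to 4551 in the layers (0.68 ± 0.16, adjusted p = 0.00457 in limma). MRPL48 (0.68 ± 0.20), MRPL33 (0.73 ± 0.24) and MRPL46 (0.49 ± 0.16) passed on U133A too, but none of these 3 passed after quantile normalization (0.38, 0.25 and 0.29). MRPL33 also lost the call without the first orbital (0.67), first global (0.58) or second medial rectus array (0.54), and MRPL46 without either global array, either lateral rectus array or the first medial rectus array (0.42 to 0.48).

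On U133B, MRPL37, a large-subunit protein specific to mitochondria, read 9347 and 6006 in the orbital layer, 9227 and 13734 in the global layer, 2659 and 1306 in the lateral rectus and 3002 and 2164 in the medial rectus (2.07 ± 0.31, n = 4 each, adjusted p = 0.00031 in limma). MRPL27, whose bacterial counterpart reaches into the peptidyl transferase centre, read 32865 and 22731, 12976 and 35100, 7732 and 6862, and 5482 and 4600 in the same order (2.00 ± 0.30, adjusted p = 0.000329 in limma). MRPL32, which in yeast and mouse must be cleaved by the m-AAA protease before assembly, read 13247 to 27750 in the layers and 4124 to 7367 in whole muscle (1.71 ± 0.26). All 3 were apart on every array and passed under all alternatives, although the global arrays of MRPL27 and MRPL32 differed by more than 2-fold from each other.

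MRPL1 (8063 to 13180 in the layers against 3766 to 4612; 1.22 ± 0.21), MRPL35 with one U133B probe set (1.28 ± 0.35) and MRPL43 with one of its probe sets (1.07 ± 0.22) also rose and passed under every alternative. MRPL14 (56072 to 78373 against 13695 to 27247; 1.61 ± 0.24) and MRPL51 (21650 to 34909 against 5544 to 12280; 1.42 ± 0.27) rose in the authors' scaling. After quantile normalization the differences of MRPL14 and MRPL51 were 0.28 and 0.46 and did not pass. The second probe set of MRPL43 (1.11 ± 0.30) behaved likewise, at 0.66.

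MRPL50 (0.95 ± 0.32), MRPL30 (1.05 ± 0.34), MRPL10, which carries the stalk to which MRPL12 binds (0.69 ± 0.23), and MRPL21 (0.69 ± 0.22) passed with smaller margins. MRPL50 lost the call without either global array, the second lateral rectus or either medial rectus array (adjusted p of up to 0.109 in limma), and MRPL30 without the second orbital, second global or second lateral rectus array (up to 0.0781). MRPL10 lost it without either orbital array, the second global, second lateral rectus or first medial rectus array (up to 0.078), and MRPL21 without the first orbital, first global or either medial rectus array (up to 0.0607). MRPL21 turned to -0.06 after quantile normalization. In MRPL50 the 2 global arrays (4112 and 5338) stood above the orbital arrays (2354 and 2052), which were near whole muscle (1481 to 2006).

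**Figure D4:**
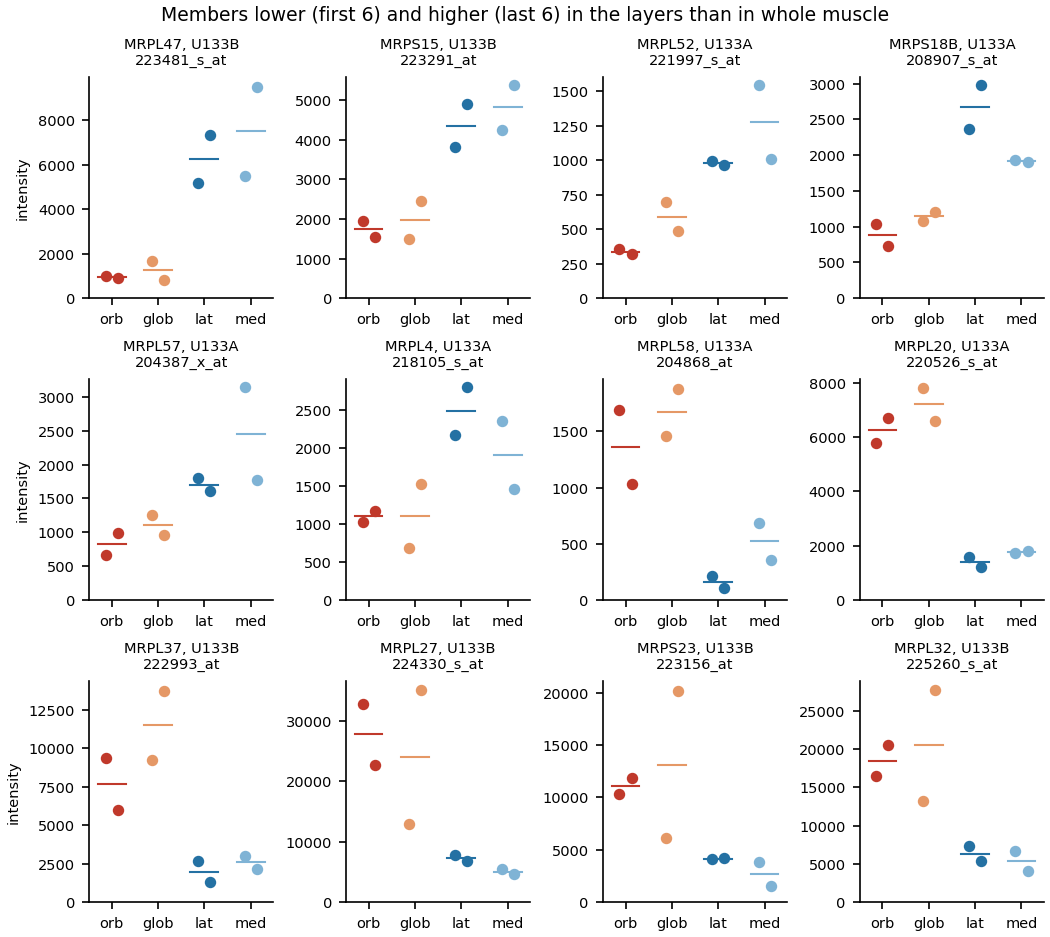
Intensity (linear axis from 0) of the 6 member probe sets with the largest falls and the 6 with the largest rises in the layers among those that passed, with 1 point per array and a line at the group mean; orb, glob, lat and med are the orbital layer, global layer, lateral rectus and medial rectus. MRPL20 reads 5796 to 7809 in the layers and 1228 to 1792 in whole muscle, and one probe set of MRPL47 reads 812 to 1688 against 5163 to 9512.

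Among members named for the small subunit that rose, MRPS23 had the largest difference, at 10347 and 11877 in the orbital layer, 6083 and 20169 in the global layer, 4130 and 4172 in the lateral rectus and 3863 and 1503 in the medial rectus (1.81 ± 0.39, n = 4 each, adjusted p = 0.00308 in limma). All layer arrays lay above all whole muscle arrays. A second probe set for MRPS23 showed no such shift (-0.09 ± 0.56). The first passed under every alternative.

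MRPS10 rose on both array types, at 3923 to 6566 in the layers against 2139 to 3464 in whole muscle on U133A (0.92 ± 0.21, adjusted p = 0.00445 in limma, n = 4 each) and by 1.31 ± 0.40 with one U133B probe set. MRPS17, a counterpart of bacterial S17, read 6185 to 7447 against 2971 to 4766 (0.84 ± 0.18, adjusted p = 0.00261 in limma). Both were apart on all U133A arrays and passed there under every alternative, whereas the U133B probe set of MRPS10 lost the call without the second global array (1.16, adjusted p = 0.0674 in limma).

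MRPS25 (10239 to 14443 against 4161 to 6224; 1.16 ± 0.20), MRPS26 (0.87 ± 0.23), MRPS21 (1.29 ± 0.35), MRPS14 (0.73 ± 0.20) and MRPS22 with one probe set (0.92 ± 0.24) rose in the authors' scaling. After quantile normalization they were at 0.57, 0.64, 0.85, 0.21 and 0.18, and none of them passed. MRPS21 was uneven within the layers, with 16746 and 20444 on the first array of each layer and 6400 and 6529 on the second. MRPS35 (0.55 ± 0.19) lost the call without the first orbital, second global, either lateral rectus or first medial rectus array (adjusted p = 0.0555 to 0.0814 in limma). A second MRPS22 probe set (0.66 ± 0.23) lost it in 8 alternatives, among them without the first orbital, either global, either lateral rectus or the first medial rectus array, and turned to -0.17 after quantile normalization.

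The falls in the layers were fewer and concerned both subunits. MRPS18B, a small-subunit protein and one of 3 paralogs related to bacterial S18, read 1032 and 726 in the orbital layer, 1085 and 1207 in the global layer, 2368 and 2980 in the lateral rectus and 1925 and 1902 in the medial rectus (-1.18 ± 0.23, n = 4 each, adjusted p = 0.00163 in limma). MRPS18A, the paralog found in the large subunit, read 3457 to 5066 in the layers and 7233 to 8731 in whole muscle (-0.96 ± 0.17, adjusted p = 0.000904 in limma). Another U133A probe set of MRPS18A, under the filter and so not tested here, read higher in the layers, at 816 to 1578 against 259 to 680. The direction of MRPS18A thus depended on the probe set. A second U133A probe set of MRPS18B, also not tested, did not show the fall, with groups that overlapped at 256 to 957 in the layers against 91 to 805. MRPS18C, on U133B, was higher in the layers, at 3099 to 3581 against 1704 to 2616 (0.75 ± 0.24, adjusted p = 0.0235 in limma), and was apart on all arrays as well.

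The calls of the MRPS18B and MRPS18A probe sets that fell held under every alternative. That of MRPS18C was lost without the second global array (0.71, adjusted p = 0.0596 in limma) or the first medial rectus array (0.69, adjusted p = 0.0518 in limma). The differences between the paralogs were not tested, and the tested probe set of MRPS18C was on another array type than those of MRPS18A and MRPS18B.

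In the large subunit, MRPL52 read 962 to 1542 in whole muscle and 317 to 696 in the layers (-1.32 ± 0.34, n = 4 each), and it met the filter only through whole muscle, so that this is a description. MRPL57 fell with both U133A probe sets (-0.86 ± 0.25 and -1.08 ± 0.27), and MRPL4, which lines the exit tunnel in bacteria, by 1.01 ± 0.28 on the log2 scale. MRPL13 fell from 3245 to 5057 in whole muscle to 2204 to 3421 in the layers (-0.70 ± 0.21). In MRPL13 and MRPL4 the groups overlapped by single arrays.

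In the small subunit, MRPS7, a counterpart of the bacterial protein that organises the head of the subunit, fell from 2418 to 2855 in whole muscle to 1430 to 2159 in the layers (-0.64 ± 0.19, adjusted p = 0.0148 in limma). After quantile normalization MRPS7 (-0.46), MRPL4 (-0.66) and one MRPL57 probe set (-0.68) did not pass. MRPL13 and the other MRPL57 probe set passed under every alternative.

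Probe sets of the same gene often went opposite ways in this comparison. Of 17 genes with at least 2 tested probe sets, 6 had all of them in 1 direction and 11 had probe sets of opposite sign that lay more than 1 log2 unit apart. Among the 11, MRPL52 and MRPL38 each had a probe set that met the filter only through whole muscle. The median spread within a gene was 1.24 log2 units for layers against whole muscle and 0.34 between the layers (17 genes), where 8 genes had 1 sign. Of genes tested on both array types, 5 of 10 had the same sign of their mean difference here, 6 of 9 between the layers and 3 of 11 between the rectus muscles.

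MRPL47, a counterpart of bacterial L29 at the tunnel exit, was the most divided. One U133B probe set fell, with 1005 and 910 in the orbital layer, 1688 and 812 in the global layer, 5163 and 7325 in the lateral rectus and 5488 and 9512 in the medial rectus (-2.66 ± 0.30, n = 4 each, adjusted p = 5.37e-05 in limma). The other rose, at 16708 to 28508 in the layers against 9428 to 13682 (1.01 ± 0.22, adjusted p = 0.00316 in limma), but was at -0.02 after quantile normalization. The fall held under every alternative.

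MRPS15, a counterpart of bacterial S15, had 2 probe sets that rose, one on U133A (1191 to 2111 in the layers against 688 to 1018; 0.90 ± 0.26) and one on U133B (26699 to 44491 against 9817 to 16394; 1.35 ± 0.22). Another fell on U133B, at 1496 to 2454 in the layers against 3822 to 5394 in whole muscle (-1.32 ± 0.25, n = 4 each, adjusted p = 0.00147 in limma). All 3 were apart on every array, and the U133B rise was at 0.21 after quantile normalization. No single direction can be given for MRPS15 or MRPL47.

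**Figure D5:**
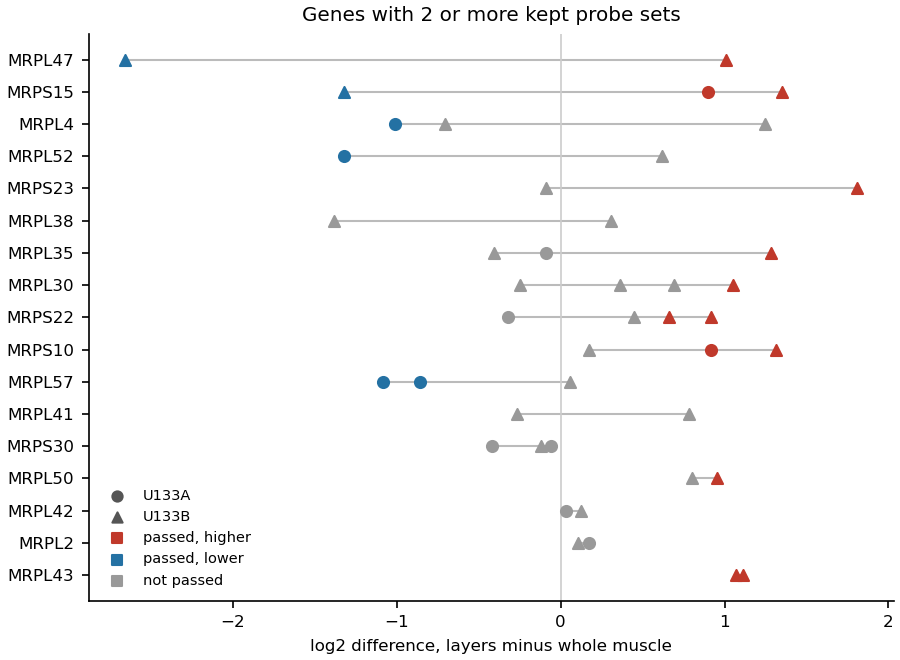
Each row is a gene with at least 2 tested probe sets, and each point is the log2 difference of 1 probe set between the layers and whole muscle, by array type (shape) and test result (colour), with a line joining the lowest and the highest. Rows are ordered by spread: MRPL47 spans from -2.66 to 1.01, whereas both probe sets of MRPL43 lie near 1.1.

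Among the other divided genes, MRPL4 (1.25 ± 0.67 and -0.71 ± 0.32 on U133B), MRPL52 (0.62 ± 0.41 on U133B), MRPL38 (-1.38 ± 0.53 and 0.31 ± 0.19), MRPL35 (-0.41 ± 0.70 and -0.09 ± 0.23 beside the probe set that rose) and MRPL41 (0.78 ± 0.34 and -0.26 ± 0.32) had members that did not pass. The MRPL38 probe set at -1.38 met the filter only through whole muscle, so that its difference is a description. The remaining divided genes were MRPL30, whose other probe sets lay at -0.25 ± 0.30, 0.36 ± 0.25 and 0.69 ± 0.32, MRPS22 (-0.32 ± 0.22 on U133A), MRPL57 (0.06 ± 0.32 on U133B) and MRPS23. Of the members with fixed names, MRPL12 (-0.39 ± 0.21), MRPL3 (-0.56 ± 0.29), MRPS16 (0.99 ± 0.44) and MRPL44 (0.63 ± 0.50) did not pass.

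By class, probe sets named for the large subunit had a median log2 difference of 0.17 on U133A (8 rose and 5 fell of 29) and 0.69 on U133B (15 and 1 of 35). Those named for the small subunit had -0.06 (5 and 3 of 15) and 0.70 (9 and 1 of 18). Beside these counts, 18.6% of all probe sets tested rose and 30.1% fell on U133A, and 20.5% and 22.3% on U133B. Names with a bacterial counterpart had medians of 0.24 and 0.69, and higher numbers 0.02 and 0.65. The 2 array types thus differed by more than the classes did.

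The other parts of the mitochondrial translation machinery also held probe sets in both directions. Of proteins tied to the mitochondrial ribosome under other symbols, 2 of 2 rose on U133A and 2 of 8 rose and 2 fell on U133B. The shares of all probe sets tested were 18.6% higher and 30.1% lower on U133A, and 20.5% and 22.3% on U133B. DAP3, a GTP-binding protein of the small subunit, read 161 to 308 in whole muscle and 1745 to 2256 in the layers (2.99 ± 0.31). MALSU1, a factor of large-subunit assembly, rose with both probe sets (2.52 ± 0.24 and 0.74 ± 0.20). PTCD3, a small-subunit protein, rose on U133A (1.06 ± 0.20) and fell on U133B (-1.94 ± 0.45), and GADD45GIP1, of the large subunit, fell (-0.74 ± 0.25). DAP3, the U133B probe set of PTCD3, and MTIF3 and YBEY among the factors that follow met the filter only through the group in which they were high, so that their differences are descriptions.

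Among translation factors, 0 of 5 on U133A passed and 6 of 10 on U133B rose, with 1 fall. The shares of all probe sets were 48.7% in either direction on U133A, and 20.5% higher and 22.3% lower on U133B. TUFM, the elongation factor that brings transfer RNA to the ribosome, rose from 1425 to 3412 in whole muscle to 5764 to 10215 in the layers (1.91 ± 0.29, adjusted p = 0.000416 in limma). GFM1, the elongation factor of translocation, rose with 2 probe sets (1.27 ± 0.20 and 1.84 ± 0.30), as did the release factor homolog MTRF1L (0.78 ± 0.25 and 0.58 ± 0.20). MTFMT, which formylates the initiator transfer RNA, rose by 1.55 ± 0.27, and the initiation factor MTIF3 fell (-1.31 ± 0.43).

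Of assembly and RNA modification factors, 1 of 12 rose and 3 fell on U133A, beside 18.6% and 30.1% of all probe sets. On U133B, 4 of 18 rose and 3 fell, beside 20.5% and 22.3% of all. METTL17, which acts on the small subunit, rose on both types (1.35 ± 0.26 and 2.64 ± 0.33), and TFB1M, the methyltransferase of the small ribosomal RNA, YBEY and NOA1 rose on U133B (1.18 ± 0.22, 1.23 ± 0.43 and 0.61 ± 0.23). RBFA and ERAL1, which assist small-subunit maturation, fell (-1.29 ± 0.19 and -0.81 ± 0.19), as did FASTKD2 (-0.79 ± 0.30), MTERF4 (-0.83 ± 0.22), NGRN (-1.23 ± 0.39) and NSUN4 (-1.61 ± 0.60).

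Of aminoacyl-tRNA synthetases, 2 of 9 rose on U133A, where 18.6% of all probe sets rose. On U133B, 3 of 8 rose and 2 fell, beside 20.5% and 22.3% of all. KARS1, which serves both the cytosol and mitochondria, rose with the 2 probe sets of U133A (1.33 ± 0.17 and 0.68 ± 0.15) and with 1 of U133B (25358 to 42043 in the layers against 7950 to 13892). VARS2 (2.10 ± 0.30) and RARS2 (0.93 ± 0.27) rose, and MARS2 (-0.84 ± 0.23) and WARS2 (-1.18 ± 0.33) fell.

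Of genes for expression of the mitochondrial genome and its regulators, 4 of 13 rose and 2 fell on U133A, beside 18.6% and 30.1% of all probe sets. On U133B, 1 of 3 rose, beside 20.5% of all. PPARGC1A, a coactivator of mitochondrial biogenesis, rose from 7255 to 8897 in whole muscle to 15908 to 27127 in the layers (1.38 ± 0.18, adjusted p = 0.000141 in limma), and its relative PPARGC1B rose on U133B (1.00 ± 0.26). SSBP1, which binds single-stranded mitochondrial DNA (1.28 ± 0.19), LRPPRC, which stabilises mitochondrial messenger RNAs (0.74 ± 0.19), and the nuclear receptor ESRRA (1.08 ± 0.35) rose. The helicase SUPV3L1 (-0.81 ± 0.24) and the transcription factor NRF1 (-0.84 ± 0.29) fell.

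For comparison with the members' 13 and 8 of 44 and 24 and 2 of 53, cytosolic ribosomal proteins had 28 that rose and 14 that fell of 78 on U133A and 16 and 4 of 31 on U133B, with medians of 0.28 and 0.82. Respiratory chain and ATP synthase subunits had 20 and 5 of 83 and 8 and 1 of 20, with medians of 0.21 and 0.26. The shares of all probe sets tested were 18.6% higher and 30.1% lower on U133A, and 20.5% and 22.3% on U133B. The medians of all 3 lists lay above that of all probe sets, and no difference between the lists was tested.

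Over the 8 U133A arrays, the mean of the members' centred profiles spanned 0.39 log2 units. Single members followed the mean of the others loosely, with a median Pearson correlation of 0.41 over 44 probe sets, a range from -0.78 to 0.89, and 13 below 0. The non-member probe sets most like the mean profile were those of AK1, adenylate kinase of muscle (r = 0.979), NUP88 of the nuclear pore (0.973), TTC9 (0.969), NDUFV2, a subunit of complex I (0.965), and WASHC3 (0.960). These correlations describe 8 arrays that differ in layer, amplification and RNA quality, and carry no test.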

How the data were processed

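RNA of 4 groups of rhesus macaque extraocular muscle was hybridised to human U133A and U133B arrays, 2 arrays per group and type. Each deposited value is the linear intensity of a probe set, as the authors summarised it. After trimming 2% of values at either end, the mean was 1500.2 to 1500.7 on every array, the mark of a global scaling; the summary software and detection calls are not given in the sources used here. Layer RNA was amplified by a T7-based method, per the labels.

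Arrays were grouped by title. Arrays were brought to the same 2% trimmed mean, floored at the 20th percentile of the pooled table (146 on U133A, 218 on U133B) and converted to log2. Probe sets were kept when their mean log2 intensity reached that of the pooled median (654 and 803), and 68 control probe sets per table were left out. The tables were fitted separately with limma 3.58.1 in R 4.3.3 (intensity trend, groups only), with two-sided tests and Benjamini-Hochberg adjustment over the kept probe sets. The fits were tested on simulated data. Figures show the deposited intensities or the fitted differences. Members and gene lists were chosen with earlier results of these data known.

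Named members are those that passed, up to 8 per direction, comparison and table with the largest difference among those whose groups do not overlap, genes with probe sets of opposite sign over 1 log2 unit apart, the 3 paralogs of MRPS18, and MRPL3, MRPL12, MRPL44, MRPS12, MRPS16 and MRPS22. No probe set carried MRPS36. Members of other lists were named where they passed. Between replicate arrays, 3 to 11 values per pair were identical, so no array was counted as a copy. Alternatives were quantile normalization, other floors and filters, no trend, 1 fit of all groups, a replicate block for the layers and each array left out. Counts by direction without single layer arrays were added after seeing the data.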

Additional observations from a re-analysis of the deposited data

Results flagged for a closer look

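In groups of 4 arrays (both layers, or both rectus muscles), 96 sets of values of named members and of members' medians were examined for 1 array far from the other 3, by the gap to its nearest neighbour as a share of the whole range, against Dixon's 95% critical value. Chance marks about 1 in 20 such groups, and 7 of the 96 exceeded it. In whole muscle on U133A, MRPL52 read 1542 on the first medial rectus array against 962 to 1011 on the others (a share of 0.896). In whole muscle on U133B, MRPL51 read 5544 on the second medial rectus array against 11595 to 12280 (0.928), MRPS23 read 1503 on the same array against 3863 to 4172 (0.925), and one MRPS22 probe set read 6114 on the second lateral rectus array against 7998 to 8428 (0.837). In the layers on U133B, the first global array stood low for MRPL10, at 3245 against 4689 to 5040 (0.836), and for MRPS26, at 4889 against 7304 to 7580 (0.915). The members' median on the second orbital array of U133B was 0.23 against 0.36 to 0.38 on the other 3 layer arrays (0.852).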

How the results depend on the processing

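The number of members that passed in either direction stayed within 1.5 times the reported one under every alternative run: 0 between the layers and between the rectus muscles, and without single arrays 18 to 22 on U133A and 20 to 26 on U133B for layers against whole muscle. By direction it moved more: quantile normalization gave 15 higher (from 24) and 4 lower (from 2) on U133B, the filter at the 75th percentile 4 lower (from 8) on U133A, and leaving out the first global array 4 lower on U133B. Of 46 named calls in that comparison, 12 of 21 on U133A and 9 of 25 on U133B passed in every alternative in which the probe set was kept. No other alternative run ended as many of these calls as quantile normalization, after which MRPL21 was at -0.058, one MRPL47 probe set at -0.022 and one MRPS22 probe set at -0.17; the cause was not tested. Medians moved more. With a filter at the 75th percentile they were -0.28 between the layers on U133A, -0.14 between the rectus muscles on U133B, and 0.22 and 0.89 for layers against whole muscle. Without a filter they were 0.018 between the rectus muscles on U133B, and 0.015 and 0.12 for layers against whole muscle, where more dim probe sets entered. Quantile normalization gave 0.0085 between the rectus muscles on U133A, and 0.10 and 0.46 for layers against whole muscle. Leaving out single arrays, the medians ranged from -0.30 to -0.17 and from -0.21 to -0.074 between the layers, from -0.089 to -0.036 and from -0.18 to -0.022 between the rectus muscles, and from 0.065 to 0.25 and from 0.63 to 0.79 for layers against whole muscle (U133A, then U133B). With a replicate block for the layers, 0 members passed and the medians were -0.21 and -0.12; same-numbered layer arrays deviated together with correlations of 0.26 and 0.13, but 2 pairs do not show that a number marks a shared source. Signal near the floor limits dim members such as MRPL58.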
